A study of Mus musculus with 7 samples.

Results

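The sites described here are distal regions of the mouse ESC genome that carried strong H3K27ac in both the F123 and the J1 line. They lay outside the windows free of gene starts where this mark was most concentrated. They were chosen by H3K27ac alone. A 1 kb bin of an mm9 autosome was taken where it lay more than 5 kb from every GENCODE M1 gene start and held over 10 times the autosomal mean of distinct H3K27ac alignments in each line, and adjacent bins were joined. Of 5056 such sites, 367 touched the 300 gene-start-free windows of 10 kb with the most H3K27ac and were left out. The other 4689 sites, called other distal sites below, covered 7980 bins, which was 0.370% of the 2157001 autosomal bins this far from gene starts.

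Enhancers are stretches of DNA that bind transcription factors and raise transcription of a gene at a distance. Active enhancers and active promoters both carry acetylated lysine 27 of histone H3, whereas trimethylated lysine 4 of the same histone (H3K4me3) is concentrated at promoters. In ESCs the factors Oct4, Sox2, Esrrb and those of the Klf family bind many enhancers, and the very dense clusters are known as super-enhancers (SEs). The sites below lie outside the windows richest in H3K27ac among those free of gene starts. Windows that hold a gene start were not ranked, whatever their H3K27ac. How far the sites are clustered among themselves was not tested.

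The series held 7 libraries, 1 for each condition, so that no difference between conditions has a replicate check and no test was made. H3K27ac ChIP-seq was available for F123, a hybrid ESC line of CAST and 129 parents, and for J1, another mouse ESC line, and H3K4me3 ChIP-seq was available for F123. RNA-seq came from 4 F123 clones, namely wild type, CAST+/129- with the distal Sox2 SE removed by paired CRISPR cuts from the chromosome of 129 origin, CAST-/129+ with the reverse, and CAST-/129- with no copy left. Where 4 values follow each other without names, they keep this clone order. Each genotype is a single clone, the labels give no animal age, and neither histone mark was measured in a deletion clone. All 3 deletion libraries were compared with the same wild type library. The libraries held 1576875 distinct alignments for H3K27ac in F123, 7743500 for H3K27ac in J1, 7108751 for H3K4me3, and 5847451 to 24891864 RNA alignments on genes. Of the markers of ESCs, wild type RNA had Pou5f1, which encodes Oct4, at 188.0 FPKM and Nanog at 129.8 FPKM, against 0 FPKM for the liver gene Alb. The 8 listed genes of primitive endoderm had a median of 19.9 FPKM in the same library. Sox2, the gene next to the deletion, read 174.4 FPKM (95% Poisson interval 171.1 to 177.8), 81.8 (78.6 to 85.1), 72.8 (68.6 to 77.3) and 7.38 (6.04 to 8.92). FPKM is distinct alignments per kb of exon and CPM is distinct alignments, both scaled to each library's alignments on genes, and all intervals cover counting error only. RNA reads were paired, per the methods, and every alignment was counted singly. Intervals of RNA counts are too narrow where both mates of a fragment were counted, which matters most for small counts.

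DNA of single sites is shown here because the H3K27ac rule did not use sequence. Each line gives the mm9 reference around a motif match in the strongest 1 kb bin of a site. It is written on the strand of the match, with the match in capitals. The reference used has no repeat masking, so whether a match lies in a repeat was not tested. The first 6 are sites whose nearest gene is in the lists used below and that held the Esrrb motif TCAAGGTCA. Esrrb is an orphan nuclear receptor of naive ESCs.
Prdm14, chr1:13064105-13064141, plus strand: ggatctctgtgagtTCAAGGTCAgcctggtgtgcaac
Sox2, chr3:34643333-34643369, minus strand: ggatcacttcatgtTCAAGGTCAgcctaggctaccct
Tbx3, chr5:120064142-120064178, minus strand: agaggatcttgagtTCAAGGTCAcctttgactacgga
Fgf4, chr7:152037263-152037299, minus strand: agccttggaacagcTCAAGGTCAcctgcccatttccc
Tdgf1, chr9:110841835-110841871, plus strand: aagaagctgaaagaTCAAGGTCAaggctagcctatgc
Spry2, chr14:106258837-106258873, plus strand: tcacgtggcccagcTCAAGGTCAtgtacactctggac

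The Klf motif CCACACCC, read by zinc finger factors such as Klf2, Klf4 and Klf5, is shown at 4 of the 7 sites that held it nearest genes for naive pluripotency factors. The Pou5f1 site lay 17.5 kb from its start, the Zfp42 site 14.1 kb and the Klf5 site 16.6 kb.
Sall4, chr2:168646371-168646406, minus strand: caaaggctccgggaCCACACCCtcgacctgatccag
Zfp42, chr8:44406163-44406198, minus strand: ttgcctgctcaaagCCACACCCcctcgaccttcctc
Klf5, chr14:99714335-99714370, minus strand: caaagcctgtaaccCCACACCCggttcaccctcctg
Pou5f1, chr17:35625281-35625316, minus strand: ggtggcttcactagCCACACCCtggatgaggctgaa

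The composite motif bound by Oct4 and Sox2 together was searched as TTGCAT and ACAA separated by 1 base. The 5 sites shown were those highest in H3K27ac among the sites with it that could be printed, and all 5 were intergenic.
Rap1b, chr10:117390339-117390377, minus strand: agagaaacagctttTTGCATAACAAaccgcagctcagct
Atpif1, chr4:132080058-132080096, plus strand: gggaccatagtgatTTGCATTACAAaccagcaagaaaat
Elk3, chr10:92827339-92827377, plus strand: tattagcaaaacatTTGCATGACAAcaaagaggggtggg
Inhbb, chr1:121245206-121245244, minus strand: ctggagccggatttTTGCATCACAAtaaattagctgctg
1700012A03Rik, chr6:31898278-31898316, plus strand: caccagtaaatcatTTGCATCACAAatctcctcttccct

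Most of the other distal sites were short. A single bin made up 2659 sites (56.7%), 2 bins 1233 sites, 3 bins 499 sites and more than 3 bins 298 sites, up to 10000 bp, whereas the longest site that touched a top window was 41000 bp. In the strongest bin of each site, H3K27ac had a median of 24.0 times the autosomal mean in F123 (quartiles 16.0 and 38.4) and 17.6 times in J1 (13.0 and 26.4). These values were used to select the sites and are given as a description. At the threshold, the lowest count inside was 7 alignments in F123 (11.2 times the mean, 601 bins) and 31 in J1 (10.1 times, 226 bins), and the highest counts outside were 6 (9.61 times) and 30 (9.77 times). A further 672 distal bins passed in J1 and missed by 1 alignment in F123, and 265 passed in F123 and missed by 1 in J1. The mean profile fell from 32.9 times the mean at the middle of the strongest bin in F123 to 6.76 times at 2.1 kb, and in J1 from 22.7 to 5.65 times.

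**Figure D1:**
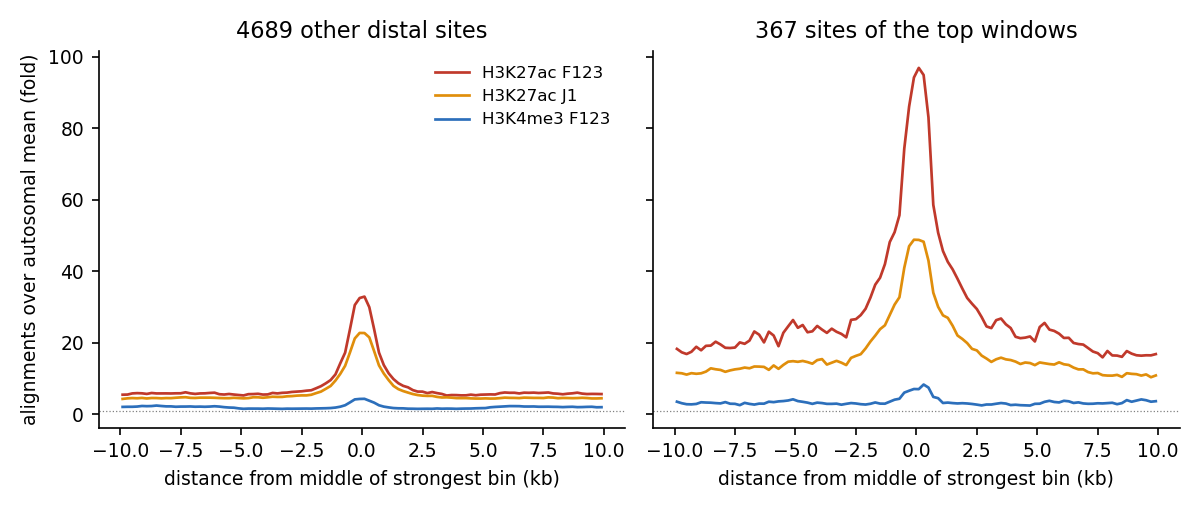
Mean density of distinct alignments by distance in kb from the middle of the strongest bin, as fold of the autosomal mean of each library, for the 4689 other distal sites (left) and the 367 sites of the top windows (right). Red and orange lines are H3K27ac in F123 and J1, which chose the sites, and the blue line is H3K4me3 in F123, which peaked at 4.32 times the mean at the other distal sites.

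Sites occurred on every autosome, from 1.15 per Mb on chromosome 3 to 3.02 per Mb on chromosome 11. No annotated gene overlapped 2004 sites (42.7%), 1803 (38.5%) lay in introns only and 882 (18.8%) touched an exon. Genes overlapped 57.3% of the bins of these sites and 39.1% of all distal bins. The start of the nearest protein-coding gene was at a median of 26.8 kb (quartiles 12.7 and 58.1), and 580 sites (12.4%) were over 100 kb away. The farthest was 1984 kb from any such start.

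H3K4me3 was low at most of these sites and high at a small number. The median was 2.14 times the autosomal mean (quartiles 1.43 and 3.21), against 0.713 times over all distal bins and 2.85 times at the sites of the top windows. Over 10 times the mean was reached by 309 sites (6.59%), where 0.0767% of all distal bins, 11.2% of the top-window sites and 26.7% of bins with a gene start did so. The share was larger with the H3K27ac level of the sites, from 3.07% in the quartile with the least to 10.9% in the quartile with the most. H3K4me3 comes from a library that the rule did not use.

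The sites with H3K4me3 were concentrated where an annotated transcript began. The rule removed bins near gene starts, but genes can have further transcript starts inside them, and 380 sites had one within 1 kb. Of these, 135 (35.5%) were over 10 times the mean in H3K4me3, whereas 1.84% of all distal bins at such internal starts were. Of the other 4309 sites, 174 (4.04%) were over 10 times. Base composition differed as well. The 174 sites away from annotated transcript starts had a median of 37 CpG dinucleotides per kb and 115 of them had at least 30, against a median of 13 in the 4135 sites with less H3K4me3, of which 121 had at least 30. Bins with a gene start and over 10 times in H3K4me3 had a median of 66. Among sites with no gene overlap, wild type RNA had a median of 13 alignments in the strongest bin of the 122 with H3K4me3 and 4 in the other 1882.

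**Figure D2:**
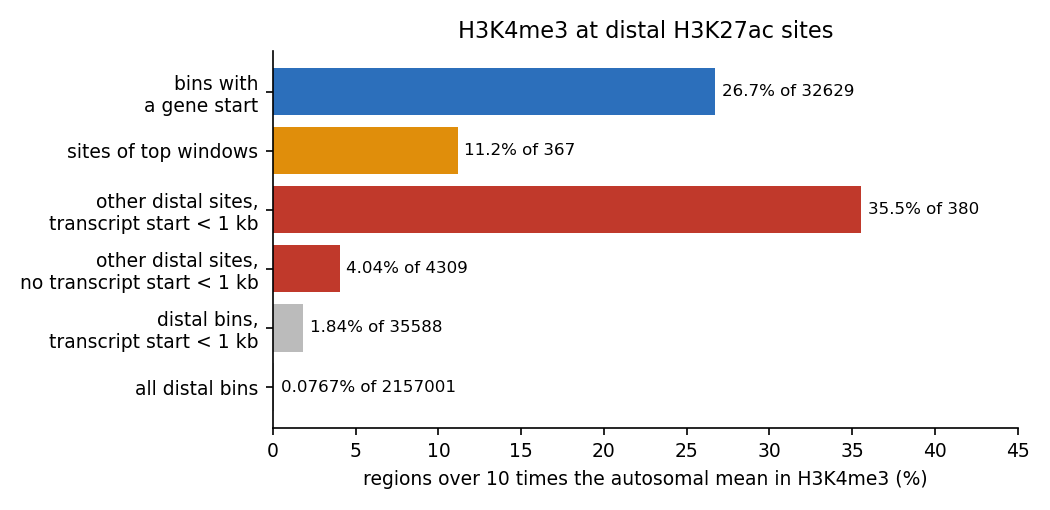
Percent of regions with over 10 times the autosomal mean of H3K4me3 alignments, with the number of regions beside each bar. The other distal sites (red) are split by whether an annotated transcript start lies within 1 kb, at 35.5% and 4.04%, and all distal bins stand at 0.0767%.

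Several of the strongest sites had H3K4me3 far above the rest. The site at chr10:21862001-21863000, in no gene, had the highest geometric mean of both lines in H3K27ac, 270.7 times the mean in F123 and 87.6 times in J1, with 54.9 times (46.6 to 64.3) in H3K4me3, and no RNA alignment in any of the 4 clones. The highest H3K4me3 was found in an intron of Mdga2 at chr12:68160001-68161000, 104.2 times (92.6 to 116.8), followed by 96.7 times (85.5 to 108.9) at chr12:75905001-75906000, 372.8 kb from the start of Kcnh5, and 75.3 times (65.5 to 86.1) in an intron of Cdk5rap2 at chr4:70039001-70040000. Each of these 4 sites was exactly 1 bin long. No input library was analysed here, so their height in each ChIP library was not set against input. Next in H3K4me3 were a site near Rnf4 at chr5:34678001-34680000, 73.8 times, and an intron of Baz2a at chr10:127534001-127535000, 72.4 times.

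Others among the 10 sites with the most H3K27ac lay beside genes known from ESCs and had little H3K4me3. Socs3, the feedback inhibitor of LIF signalling, had a site 6.14 kb from its start at chr11:117837001-117840000, with 137.8 times the mean of H3K27ac in F123, 98.4 times in J1 and 2.85 times (1.23 to 5.62) in H3K4me3. Pim3, a kinase gene downstream of Stat3, had one 5.88 kb away at chr15:88698001-88700000, with 115.3, 77.5 and 3.21 times (1.47 to 6.09). The windows of both sites hold the starts of these genes, and so were not ranked. A site of 6 bins overlapped an exon of Arid5b at chr10:67597001-67603000, where an annotated transcript starts, and had 19.6 times (14.8 to 25.5) in H3K4me3. The 10 were completed by sites nearest Gdi2, Eif4a2, Nacc2 and Sox13, with H3K4me3 at 43.9, 6.06, 7.49 and 7.13 times the mean.

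Motifs of ESC factors were unevenly represented in the strongest bins. Klf matches were found in 759 sites (16.2%) and in 5.72% of all distal bins, and Esrrb matches in 283 sites (6.04%) against 2.10%. The Stat motif, TTCC and GGAA with 1 base between them, stood at 4.24% against 2.55%, and the AP-1 motif, TGA and TCA with 1 base between them, at 29.2% against 26.9%. Matches of the Oct motif ATTTGCAT (6.63% against 8.65%) and of the Sox motif ACAATGG (14.97% against 16.3%) were less frequent than in all distal bins. The Oct-Sox composite was present in 22 sites (0.469%) against 0.257%, and in none of the 367 sites of the top windows. At shares this low, 367 sites are too few to read that as a lack of the motif. A core motif of the insulator protein CTCF, AG and GGGCGC with 1 base between them, had 83 sites (1.77%) against 0.488%. Both strands were searched, overlapping matches were counted once for a bin, and the Oct motif shares its end with the first part of the composite.

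These shares depend on base composition, because the sites were richer in G and C (median 49.2%) than all distal bins (41.1%). Among bins of 45 to 50% GC, 1951 sites and 404360 distal bins, Oct stood at 7.28% against 4.96%, so that its order turned. Sox, at 15.2% (297 sites) against 14.4%, turned as well, by a small margin that was not tested. Esrrb stood at 6.36% against 2.79%, Klf at 15.02% against 9.0%, Stat at 4.15% against 2.86%, AP-1 at 31.9% against 26.5% and the composite at 0.513% against 0.186%, which rests on 10 sites. CTCF came to 0.769% against 0.877%, near the distal bins, which rests on 15 sites. Esrrb was at 5.88% in the quartile of the sites with the least H3K27ac and at 5.72% in that with the most, and Klf at 15.5% and 18.4%. A match is a stretch of letters and not a measurement of binding, and matches in repeats were not set apart.

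**Figure D3:**
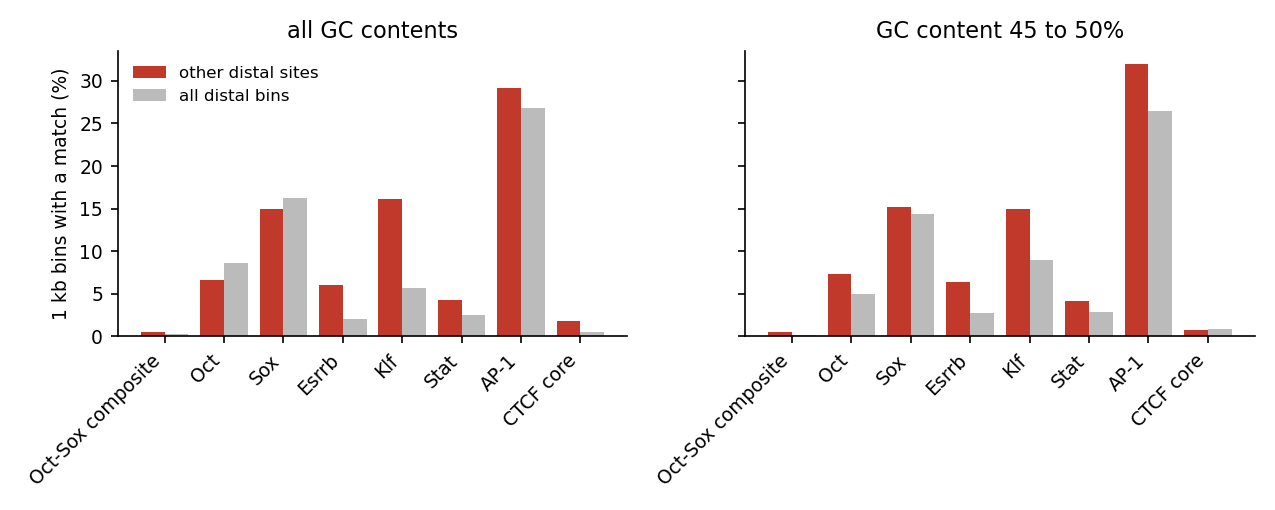
Percent of 1 kb bins that hold at least 1 match of each motif on either strand, for the strongest bins of the other distal sites (red) and for all distal bins (grey), over all GC contents (left) and among bins of 45 to 50% GC (right). Esrrb and Klf stand above the distal bins in both panels, while Oct and Sox change their order, Sox by a small margin on the right.

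RNA was read at sites that no annotated gene overlaps, since the deposited alignments hold little signal in introns, where 5.52% of distal bins had any wild type alignment. Of the 2004 intergenic sites, 1491 (74.4%) had at least 1 wild type RNA alignment in their strongest bin, against 37.4% of 1312984 intergenic distal bins and 90.9% of the intergenic top-window sites. The deletion libraries were shallower and had smaller shares, 68.3%, 51.7% and 38.5% of the sites and 36.2%, 34.3% and 18.9% of the distal bins. CAST-/129+ and CAST-/129- were of like depth, with 6078945 and 5847451 alignments on genes. Intergenic bins held 19.5%, 17.8%, 23.2% and 17.1% of the autosomal RNA alignments of the 4 libraries. The part of depth in the shares was not tested. Most sites had few alignments, with a median of 7 over the whole site in wild type and 0 in CAST-/129-.

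A pair of sites supplied a large part of the summed RNA. The site at chr3:5860001-5861000, 284.3 kb from the start of Pxmp3, had 23944, 26294, 22260 and 22310 alignments. The site at chr2:22599001-22601000 had 3979, 3402, 2721 and 2717. These distinct counts were nearly equal at the former, and of like size at the latter, in libraries of 5847451 to 24891864 alignments on genes, so that no change in level was read from their ratio to those totals. Over all intergenic sites the sum in CAST-/129- was 175.8% (173.6 to 178.1) of wild type, and it was 84.6% without the former site and 69.4% (67.9 to 71.03) without either. CAST+/129- and CAST-/129+ were at 132.0% and 185.8%, and at 90.6% and 92.4% without the pair. The direction of the sum therefore rested on these sites. The values with these sites are therefore given as sums only, and not as a change in RNA level. With RNA reads before collapsing the sum was 295.7% of wild type, and with a threshold of 20 times for H3K27ac it was 272.0%. Next in wild type RNA were a site nearest Nfat5, with 1531, 852, 429 and 234 alignments, and a pair nearest Klhl25, with 1419, 458, 178 and 172 and with 1409, 551, 230 and 179.

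Site by site, a smaller share of the sites than of distal bins was lower in CAST-/129-. The share that was higher was larger, but it counts a site from which no change in level was read. Of 78 sites with a mean of at least 2 CPM over the 4 libraries in the strongest bin, 17 (21.8%) were at least 3-fold lower in CAST-/129- than in wild type, where 33.3% of 6695 intergenic distal bins with the same mean were. At least 3-fold higher were 8 (10.3%), against 2.69% of the distal bins. These 8 include the site at chr3:5860001-5861000, at 396.6% of wild type, from which no change in level was read above. A count without it was not made. The median was 70.0% of wild type at the sites and 47.8% in the distal bins. In CAST+/129- it was 85.3% and 60.9%, and in CAST-/129+ 84.6% and 60.1%. For a count of 0, 3 alignments were used.

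The sites downstream of Klf5 were among the lower ones. Klf5 encodes a zinc finger factor of the naive state, and 6 of the other distal sites had it as their nearest gene, 1 of them over an exon of Klf5. The intergenic site at chr14:99714001-99715000 had 1281, 219, 100 and 73 RNA alignments, the last at 24.3% (18.9 to 30.7) of wild type. At chr14:99723001-99727000 the counts were 377, 6, 2 and 8, so that CAST+/129- stood at 3.17% (1.16 to 6.97). All 3 deletion clones were below wild type at both sites by more than counting error.

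Wild type was also the highest further from Klf5, while the order of the deletion clones differed between sites. Counts were 94, 0, 4 and 0 at chr14:99733001-99734000, and 120, 2, 4 and 0 at chr14:99735001-99737000. At chr14:99738001-99742000 they were 203, 27, 9 and 1. In wild type 1273 of the 1281 alignments of the first site, 373 of the 377 of the next and all 203 of the last were on the plus strand, that of Klf5. The first site begins 1.38 kb past the annotated end of Klf5 and the last 25.4 kb past it, and whether the RNA belongs to transcripts of Klf5 was not tested. Klf5 itself read 187.9 FPKM (183.8 to 192.0), 88.8 (84.9 to 92.9), 72.8 (67.8 to 78.2) and 66.6 (61.6 to 71.8), the last at -1.44 on the scale of log2(FPKM + 4) and so under 3-fold.

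**Figure D4:**
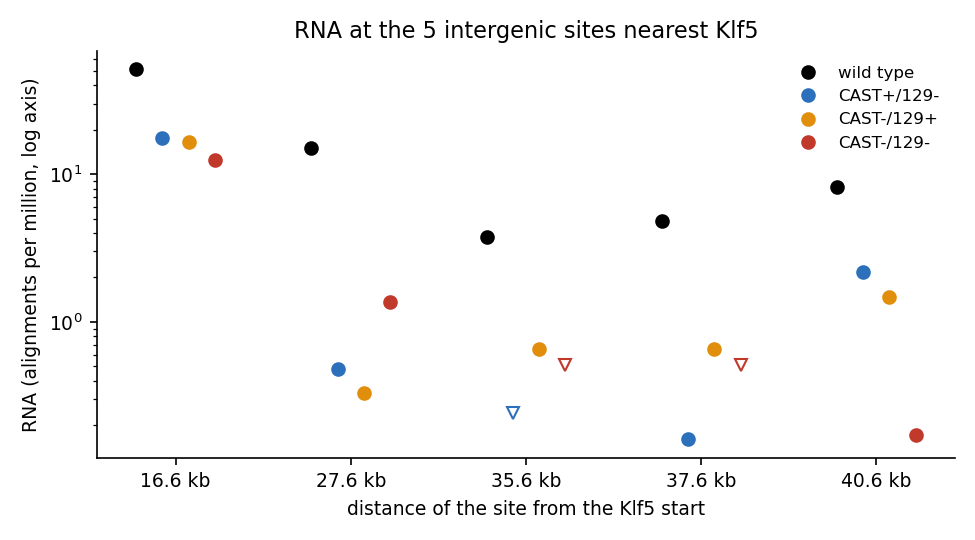
RNA at the 5 intergenic sites nearest Klf5, in CPM on a log axis, against the distance of each site from the Klf5 start. Each filled point is 1 library, open triangles mark the limit of 3 alignments where a library had 0, and wild type (black) is the highest at each site.

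Over the 30 intergenic sites nearest a gene for a naive pluripotency factor, RNA summed to 113.7 CPM in wild type, and CAST-/129- was at 22.6% (19.0 to 26.6) of it. Without the Klf5 sites it was at 38.4% (29.5 to 49.2), CAST+/129- at 53.1% (45.3 to 62.2) and CAST-/129+ at 63.5% (51.8 to 77.3). A single site nearest Zfp42 supplied 302 of the 754 wild type alignments behind these values, and without it as well they were, in the same order, 55.6% (41.6 to 73.0), 63.5% (52.3 to 76.8) and 102.4% (82.5 to 126.1), so that CAST-/129+ was no longer below wild type. Beside these sums, the intergenic distal bins above had medians of 47.8% in CAST-/129-, 60.9% in CAST+/129- and 60.1% in CAST-/129+. Those are medians over bins with a mean of at least 2 CPM and not sums over sites, so the measures are unlike. The 13 intergenic sites nearest LIF pathway genes stood at 81.2% (55.5 to 115.9) in CAST-/129-, an interval that includes no change. The 20 nearest genes of Nodal, FGF and BMP signalling stood at 51.9% (36.6 to 72.0) there. For these 20 sites CAST+/129- at 90.2% (74.0 to 109.5) and CAST-/129+ at 93.8% (72.3 to 120.5) had intervals that include no change. A site 5.63 kb upstream of Tet1, which encodes a methylcytosine dioxygenase, had 60, 4, 2 and 2 alignments. The site nearest Zfp42, the Rex1 gene, that was left out above had 302, 57, 4 and 9. It lies 2.42 kb past the annotated end of Zfp42, and all but 2 of its wild type alignments were on the strand of that gene, so that the same limit holds. Not every site nearest a naive factor was lower in each clone. At chr1:13084001-13087000, nearest Prdm14, the counts were 42, 11, 22 and 4, and CAST-/129+ was at 214.5% (121.9 to 367.6) of wild type. At chr1:13064001-13067000, the Prdm14 site shown above, they were 31, 19, 12 and 8, at 122.2%, 158.5% and 109.9% of wild type with intervals that include no change.

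The region of Sox2 held 4 of these sites. Another 3, between chr3:34654001 and 34669000 in the region of the SE, lie in top windows and were left out. The ends of the deletion were not located here. Both sites nearest Sox2, at 5.57 and 14.6 kb from its start, lay in an intron of the noncoding gene Sox2ot, and both were within 1 kb of an annotated transcript start. H3K4me3 was at 2.14 times (0.785 to 4.66) the mean at the former and at 8.20 times (5.20 to 12.3) at the latter. The other 2 stood between Sox2 and the SE at 85.6 and 94.6 kb. The former of these had 27, 2, 2 and 4 RNA alignments. CAST+/129- was at 14.8% (1.70 to 58.8) of wild type there. That interval takes each alignment as independent, and mates of a fragment may both be counted, so no difference was read from it. The intervals of CAST-/129+, 30.3% (3.495 to 120.7), and CAST-/129-, 63.1% (16.0 to 181.0), include no change. The latter site, which holds the Esrrb match shown above, had 2, 2, 0 and 0 alignments, too few to show a difference at this depth.

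Other distal sites lay near expressed genes. Their nearest protein-coding genes numbered 2800, of which 2232 (79.7%) had at least 1 FPKM in wild type, where 55.1% of all 21062 protein-coding genes did. The median was 11.5 FPKM for the nearest genes and 1.92 for all. The most sites, 16, were nearest to Smad7, an inhibitor of TGF-beta signalling, followed by Klf3, Msi2 and Arhgap21 with 11, Rybp and Manba with 10, and Jmjd1c, Qk, Pitpnc1 and Myc with 9. The annotation holds Qk as a model with 0 alignments in every library.

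Levels of these genes differed in how they stood in the deletion clones. Smad7 read 45.8 FPKM (44.6 to 47.1), 20.8, 14.2 and 14.3 (12.9 to 15.8). Pitpnc1, a phosphatidylinositol transfer protein gene, was at 23.4, 4.62, 6.02 and 8.81. Myc, a growth regulator, went the other way, at 20.6 (19.6 to 21.8), 40.7 (38.6 to 42.9), 28.8 (26.2 to 31.5) and 31.1 (28.4 to 34.0). Arhgap21 stood between 20.9 and 23.1 FPKM in all 4 libraries. On the scale of log2(FPKM + 4) the 9 genes with counts ranged from -1.44 for Smad7 to 0.51 for Myc in CAST-/129-, and none passed 3-fold there. Pitpnc1 passed 3-fold in CAST+/129-, at -1.67.

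Only genes with at least 8 FPKM in wild type can be 3-fold lower once 4 is added. Among the 1620 nearest genes above this level, 60 (3.70%) were 3-fold lower in CAST-/129-, where 1.94% of all 7172 such genes were. Sox2, whose own SE was deleted, is in both counts. In CAST+/129- it was 35 (2.16%) against 1.24%, and in CAST-/129+ 37 (2.28%) against 1.28%. Of the 2800 nearest genes 20 (0.714%) were 3-fold higher in CAST-/129-, against 1.10% of all genes, 9 (0.321%) against 0.418% in CAST+/129- and 12 (0.429%) against 0.579% in CAST-/129+, shares that are not matched for wild type level. The counts depend on the value added to FPKM. With 1 in place of 4, 147 of 2094 nearest genes of at least 2 FPKM (7.02%) were 3-fold lower in CAST-/129-, against 3.94% of all such genes, and 52 (1.86%) were higher, against 3.07%. The median log2 ratio of the nearest genes of at least 8 FPKM was -0.25 in CAST-/129-, against -0.11 for all genes of that level.

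In CAST-/129- the share of lower genes was larger where 4 or more sites lay within 100 kb of the start. It was 1.32% of 3633 genes with no site, 2.35% of 1659 with 1 site, 2.24% of 1340 with 2 or 3, 3.55% of 394 with 4 or 5 and 5.48% of 146 with 6 or more, the last being 8 genes. With genes near top-window sites set aside, it went from 1.17% of 3587 genes to 5.21% of 96, or 5 genes. In the same order of classes the share was 1.16%, 1.27%, 1.12%, 1.78% and 2.74% in CAST+/129- and 1.16%, 1.39%, 0.970%, 2.54% and 2.74% in CAST-/129+, each with 4 genes in the last class, and both were lower with 2 or 3 sites than with none. Within bands of wild type level, genes with 4 or more sites were above genes with 0 or 1 in CAST-/129-, at 2.93% against 1.12% for 8 to 20 FPKM, 3.64% against 2.07% for 20 to 50 FPKM and 6.96% against 2.21% for 50 FPKM and more. In the last band CAST+/129- went the other way, at 1.74% against 1.86%, and CAST-/129+ was at 3.48% against 1.86%. For genes 3-fold higher in CAST-/129- the same bands gave 0.976% against 0.958%, 0.455% against 0.311% and 0% of 115 against 0.698%, so that they showed no one direction.

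**Figure D5:**
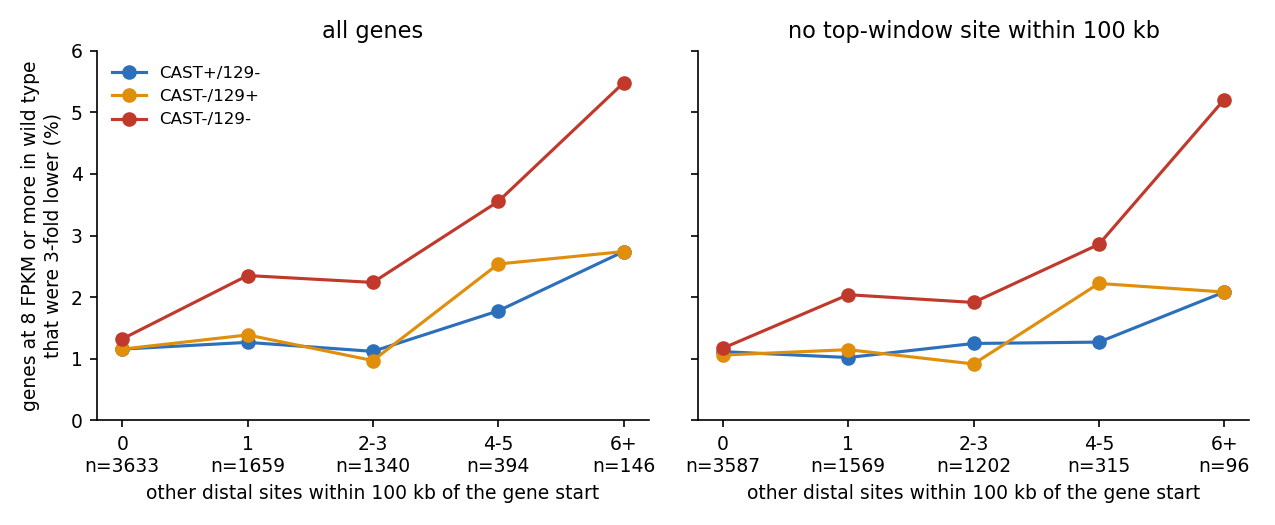
Percent of genes with at least 8 FPKM in wild type that were 3-fold lower in each deletion clone on the scale of log2(FPKM + 4), by the number of other distal sites within 100 kb of the gene start, for all genes (left) and for genes with no top-window site within that distance (right). The number of genes in each class stands under the axis, and CAST-/129- reaches 5.48% and 5.21% in the class of 6 or more sites.

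On the scale of log2(FPKM + 4), the nearest genes with the largest decreases in CAST-/129- were Sox2, Npl, Gm7325, Tbx3 and Cobl, at -3.97 to -2.76. Npl, a sialic acid lyase gene with 4 sites within 100 kb, read 58.0 FPKM (55.5 to 60.6), 24.4, 15.7 and 1.83 (1.02 to 3.02). Gm7325 was at 84.4, 15.5, 11.0 and 6.70 (4.72 to 9.24). Tbx3, a T-box factor of naive ESCs with 5 of these sites and 4 top-window sites within 100 kb, was at 100.9, 18.5, 10.4 and 10.3 (9.23 to 11.5). Cobl, an actin nucleator gene, was at 41.3, 0.866, 0.808 and 2.69 (2.24 to 3.20), so that each clone with a deletion was far below wild type.

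The 5 largest increases were in Cdkn1c, Myl9, Igfbp3, Crabp1 and Gap43. Cdkn1c, an imprinted inhibitor of the cell cycle, read 2.91 FPKM (2.45 to 3.44), 12.8, 20.9 and 167.8 (160.4 to 175.6). Myl9, a myosin light chain gene, was at 1.52, 28.3, 25.5 and 70.3 (64.2 to 76.9). Igfbp3 was at 7.26, 29.5, 37.8 and 78.4. Crabp1, which binds retinoic acid, was at 9.12, 4.39, 8.61 and 75.9, with the high value in CAST-/129- alone, and Gap43 was at 0.897, 8.15, 15.7 and 23.0. Markers of fibroblasts, which serve as feeder cells for ESCs, were also higher as a sum in each deletion clone. Of these markers, Thy1 was lower in both monoallelic clones, at 11.4, 5.68, 6.26 and 27.6 FPKM. The 10 listed markers summed to 28.0, 233.7, 259.3 and 795.3 FPKM. In the deletion clones 5, 4 and 9 of these 10 were 3-fold higher, and none was at 0 in any library. Their part in the increases was not tested.

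Lists of genes were followed by whether a site lay within 100 kb of their start, which 34.1% of all protein-coding genes and 49.3% of the 7172 genes of at least 8 FPKM had. Naive pluripotency factors had one in 14 of 18 measured genes, LIF pathway genes in 7 of 9, and genes of Nodal, FGF and BMP signalling in 18 of 19. Smad7 had 10 sites within this distance, Prdm14, a repressor of the primed state, 7, and Klf5, Pim1, Spry4 and the BMP target Id1 6 each, and there were 0 at Klf4, Esrrb, Tcl1, Tet2, Jak1, Stat3 and Id2. The nearest sites of Esrrb were over 100 kb from its start, inside the gene. Most genes of other lineages were low in wild type, but the 8 of primitive endoderm had a median of 19.9 FPKM. A site lay within 100 kb of 1 of 8 genes of primitive endoderm, 2 of 8 of trophectoderm and 2 of 7 of primitive streak. For neural cells it was 1 of 5, for fibroblasts 2 of 10 and for adult tissues 3 of 9. These shares were at or under that of all protein-coding genes, while primed epiblast had 3 of 5. In CAST-/129-, with and without a site, 3-fold higher were 4 genes of trophectoderm, 5 of primitive streak, 1 of neural cells, 1 of primed epiblast and none of primitive endoderm or adult tissues, and lower were 2 of primitive endoderm and none of the other lineages. Of all protein-coding genes, 1.10% were higher there, and of those with at least 8 FPKM in wild type, 1.94% were lower.

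In CAST-/129-, 6 of the 14 naive factors with a site nearby were 3-fold lower and 1 was higher, and all 4 without a site were lower. The 6 include Sox2, whose own SE was deleted. Of all genes with a site within 100 kb, 91 of 3539 of at least 8 FPKM (2.57%) were lower and 59 of 7174 (0.822%) were higher. Prdm14 read 13.2 FPKM (12.3 to 14.1), 3.81, 4.23 and 1.07 (0.610 to 1.73). Pou5f1, in contrast, was at 188.0, 131.4, 206.2 and 162.9 FPKM, and Sall4 at 73.4, 60.2, 56.3 and 58.4, and neither passed 3-fold. Dppa3, a gene of germ cells and naive ESCs with 2 sites, was the one higher, at 6.85, 89.2, 108.1 and 31.1. Klf4 with 0 of these sites and 1 top-window site was at 120.3, 19.2, 13.8 and 8.27.

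Of the signalling genes, 3 of the 7 LIF pathway genes with a site were 3-fold lower in CAST-/129- and none was higher, where all genes with a site were at 2.57% and 0.822%. These were the LIF receptor gene Lifr, at 21.5, 12.1, 8.26 and 3.82 FPKM, Socs3, at 46.9, 22.1, 16.3 and 9.82, and Bcl3, at 30.6, 18.3, 14.2 and 7.23. Of the 18 genes of Nodal, FGF and BMP signalling with a site, 2 were lower and 1 was higher, beside the same shares. The ligand genes of that list included Bmp4, at 40.5, 39.0, 24.9 and 7.77, and Fgf4, at 53.7, 37.2, 34.0 and 22.4. Nodal, a ligand gene with 3 sites, went the other way, at 19.7, 24.4, 31.7 and 45.2. The Nodal inhibitor Lefty1 with 1 site was higher, at 6.49, 23.8, 43.8 and 102.6, and the FGF target Etv4 with 3 sites was lower, at 47.1, 17.2, 9.75 and 10.6. Chromosome 8, which carries Zfp42, Klf2 and Junb, had a median log2 ratio of -0.36 in CAST-/129- and -0.40 in CAST-/129+ over its 467 genes of 8 FPKM or more, where the other autosomes were between -0.15 and -0.05 in CAST-/129-. Zfp42, at 185.0, 165.1, 101.1 and 52.2 FPKM, had a log2 ratio of -1.75 in CAST-/129-. Without chromosome 8, 53 of 1518 nearest genes (3.49%) were 3-fold lower in CAST-/129-, against 1.83% of all genes.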

How the data were processed

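The authors aligned ChIP-seq reads (Bowtie, per the labels) and strand-specific polyA+ RNA-seq reads (Novoalign) to mm9 and deposited positions in which identical alignments are collapsed, with a whole-number count of reads on each line. Their versions and filters were not given in the sources used here, and no input library was analysed here. The labels name Abcam ab8580 as the H3K4me3 antibody, and the methods name another.

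Distinct alignments were used, and motif shares of distal bins are over the 2078043 without unknown bases. ChIP alignments were counted at their 5′ end in 1 kb bins and divided by the autosomal mean, and windows were 10 kb on a fixed grid. H3K4me3 and motifs were read in the strongest bin of each site, the one with the highest geometric mean of both H3K27ac folds. RNA alignments, whose strand is opposite to the transcript, were counted at their midpoint, in genes over exonic bases of exactly 1 gene of that strand (GENCODE M1 on NCBIM37, at least 200 such bases) and in bins on both strands. A 3-fold call used log2(FPKM + 4). Collapsing limits abundant genes, most in the deep wild type library, and with them the totals on genes that scale FPKM and CPM. A ratio of 100% of wild type therefore need not mark an unchanged level. For genes with 0 or 1 site, the median log2 ratio in CAST-/129- was -0.149 at 8 to 20 FPKM and 0.092 at 50 FPKM and more. Cells were passaged without feeder cells before harvest, per the methods.

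Named were the 10 sites highest in H3K27ac, 5 in H3K4me3, 5 intergenic sites with the most wild type RNA, the 10 genes with most nearest sites, list members, the 5 largest increases and decreases in CAST-/129-, and sites at the threshold. The Klf5 sites as a group and the single sites at Tet1, Zfp42 and Prdm14 were chosen after their values were seen. Members and lists were chosen with earlier results of these data known. Tfcp2l1, Pou3f1, Tfap2c and Sox1 of the lists had no match. The rule and the calls were run on simulated data with planted changes well past the thresholds. That does not probe values near the thresholds. Intervals are exact Poisson, or exact binomial for a ratio of 2 counts, at 95%, and take each alignment as independent. Separate cultures are not given by the labels. Scripts ran under Python 3.11.15 with matplotlib 3.10.9, scipy 1.17.1, pandas 2.3.3 and numpy 2.4.6.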

Additional observations from a re-analysis of the deposited data

Results flagged for a closer look

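The rule for the sites left out the X chromosome. There, 59 sites met the same distance and the same threshold, over 10 times the autosomal mean of H3K27ac alignments in both F123 and J1, and they covered 90 bins. They entered no count above.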

How the results depend on the processing

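Of 67 values under an alternative, 40 stayed within 1.5 times a count or within the interval of a share or ratio, 25 moved and 2 reversed. At 5 times the mean the sites numbered 10356, and at 20 times 1658. The share over 10 times in H3K4me3 was then 4.63% and 9.11%, and it was 5.65% with H3K27ac reads before collapsing, 5.62% for sites over 10 kb from gene starts and 13.7% with H3K4me3 over 5 times. The Oct-Sox share was 1.02% over 3 kb, where distal bins had 0.770%. The share of nearest genes with 1 FPKM was 76.0% at 5 times, 84.1% at 20 times, 65.8% with genes of any biotype and 82.9% within 50 kb. Nearest genes 3-fold higher in CAST-/129- numbered 54 at 5 times, 11 at 20 times, 52 with FPKM plus 1 and 62 at 2-fold, and lower ones 147 with FPKM plus 1 and 203 at 2-fold. Summed intergenic RNA in CAST-/129- was 159.1% of wild type at 5 times, 272.0% at 20 times, 186.3% with H3K27ac reads and 295.7% with RNA reads before collapsing. It was 214.8% at 10 kb from gene bodies, 192.5% at 10 kb from gene starts and 184.1% when scaled by all alignments. It reversed to 84.6% without the most abundant site and to 69.4% without the 2 most abundant, as the dropped alignments require, and the cause of the other shifts was not tested. Leaving out these sites or the most abundant site of a gene list, the 3 kb window, genes without top-window sites and genes without chromosome 8 were added after seeing the data. The alternative that leaves out repeat-rich sites was not run, because the reference used has no repeat masking. No paired analysis was possible because each condition has 1 library. The F123 H3K27ac depth of 0.624 alignments per kb sets the threshold at 7 alignments, so that membership near it moves with counting error.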
